A study of Mus musculus with 6 samples.

Results

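Carbonic anhydrases catalyse the reversible hydration of carbon dioxide to bicarbonate and a proton. In the large bowel the protons and bicarbonate feed the exchangers by which surface epithelial cells take up sodium and chloride and buffer the lumen, and the family is spread over the cytosol, the cell surface and the secretory route, so members do not stand in for each other. The 8 genes described here, Car1, Car2, Car3, Car4, Car8, Car12, Car13 and Car14, were chosen by name. The platform annotation assigned 18 probe sets, each a group of short probes against a transcript, to 1 of them and to no other gene, out of 18194 genes with such a probe set. The probe set brightest on average across the 6 arrays leads each gene. A filter on low values (above log2 4 on at least 3 of 6 arrays) was passed by 7 of the 8, against 10491 genes in all, and Car14 did not pass.

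The samples were colon from 6 C57BL/6 littermates, 1 array and 1 mouse each, 6 to 8 weeks old, all homozygous for a floxed Pparg gene (PPAR g fl/fl) and all given 2.5% dextran sodium sulfate in the drinking water, a polymer that injures the colonic epithelium, until day 7. The 3 deficient mice (Lysozyme M cre+) carried a Cre recombinase targeted to the lysozyme M promoter, which is active mainly in macrophages and neutrophils. By this design epithelial cells and fat cells should keep PPAR gamma, a nuclear receptor that controls lipid and inflammatory genes. Cre activity in them was not measured. The 3 control mice (Lysozyme M cre-) lacked Cre, so an effect of Cre itself cannot be told apart from loss of the receptor, and no mouse was without dextran sodium sulfate. Values are deposited log2 expression summaries with a lowest value of 2.25. A level of 1 probe set is not set against that of another.

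The arrays differed in bowel segment as read from marker genes outside the family. Fabp6, the ileal bile acid binding protein, and Apoa1, made by small intestinal enterocytes for lipid export, were both above log2 10 on control replicate 1 and deficient replicate 3 (called small intestine-like here) and at 3.82 to 7.81 on the 4 other arrays (called colon-like). Levels of Hoxa10, which patterns the hindgut, were 2.87 and 3.89 on the small intestine-like arrays against 7.07 to 8.92 on the colon-like ones. The labels give colon for all 6. Each genotype held 1 small intestine-like array, so genotype differences are given over all 6 arrays, over the 4 colon-like arrays and between the 2 small intestine-like ones. Pparg itself was at 9.91 and 9.54 in the colon-like control samples and at 8.77 and 8.23 in the colon-like deficient ones. On the small intestine-like arrays it was at 5.28 in the control and 4.15 in the deficient sample. Colonic epithelium, which is rich in Pparg, is not the target of the Cre, so whole tissue does not check the deletion.

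No gene of the family passed the genotype test. Car4, the carbonic anhydrase anchored on the outer face of the apical membrane, was higher on every deficient than on any control array, and Car3, an isozyme abundant in fat and muscle, was lower on every deficient array. Neither passed limma's test after Benjamini-Hochberg adjustment over all 10491 genes, where 0 genes were called (0%). At an unadjusted p under 0.05, limma gave 2 of the 7 members, again Car3 and Car4, beside 783 (7.46%) of all genes. Every deficient array lay above every control array for 1 of 7 members and 9.36% of all genes, and below it for 1 of 7 members and 4.15% of all genes. The members' median difference was 0.05, with 4 higher and 3 lower, and that over all genes was 0.06. The members' median turned to -0.43 over the colon-like arrays (all genes 0.08), and to -1.60 without control replicate 1, -0.80 without deficient replicate 1 and -0.41 without deficient replicate 2. In tissue RNA, fewer cells of a type and less RNA per cell cannot be told apart.

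**Figure D1:**
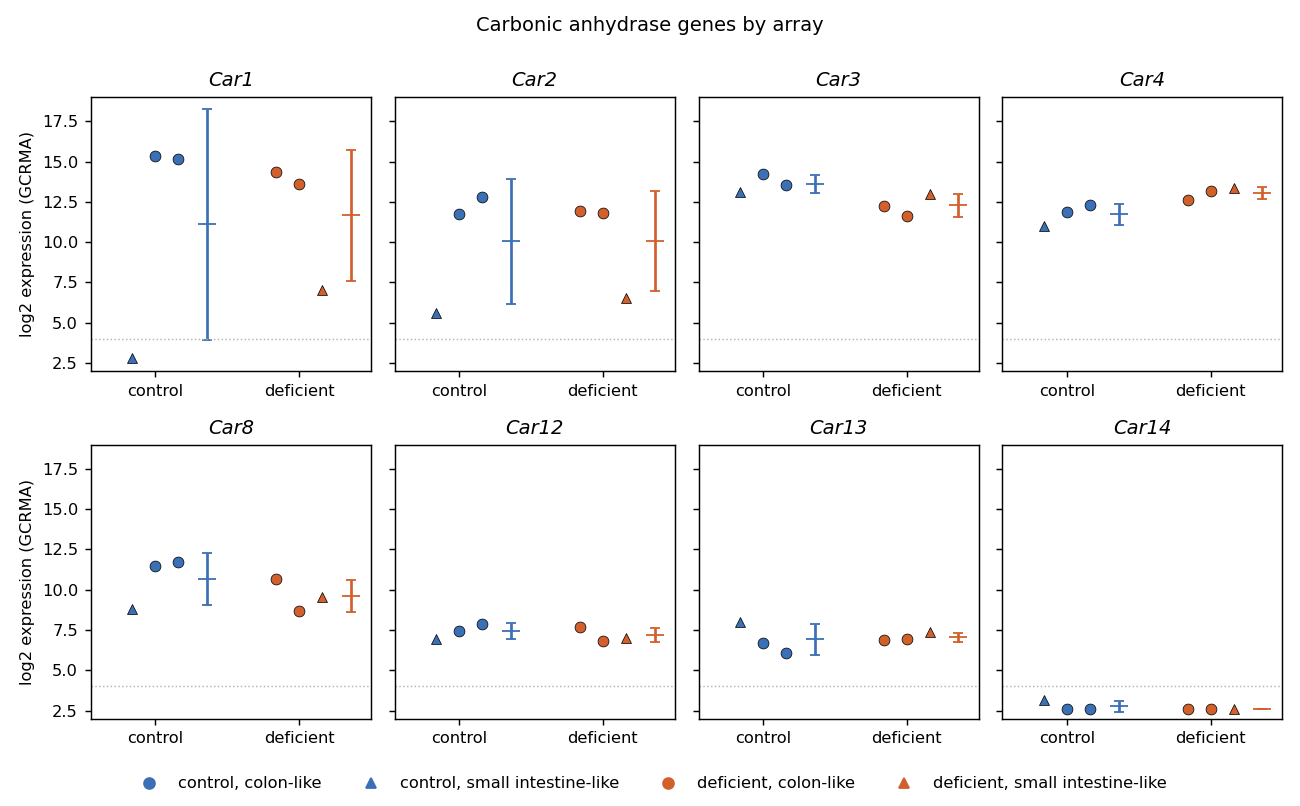
Log2 expression of the leading probe set of each of the 8 genes on each array, by genotype, with circles for colon-like and triangles for small intestine-like arrays; the bars give mean ± SD of 3 samples and the dotted line the filter at log2 4. Car1 and Car2 are low on both triangles, Car4 is higher in all deficient samples and Car3 lower, and Car14 lies under the filter throughout.

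Car4 was read by 2 probe sets, and on both every deficient sample was above every control. The leading one (1448949_at) stood at 11.02, 11.89 and 12.29 in control replicates 1 to 3 and at 12.64, 13.16 and 13.37 in deficient replicates 1 to 3. The groups did not overlap, and the lowest and the highest sample were both small intestine-like arrays. The means were 11.73 ± 0.65 (SD, n = 3) in control and 13.06 ± 0.38 (n = 3) in deficient samples. The log2 difference was 1.33 ± 0.38 (SE), at limma's adjusted p of 0.659 (unadjusted p 0.0140). The other probe set (1418094_s_at) differed by 1.42, again without overlap, from 10.18 to 11.73 in control and from 12.03 to 12.97 in deficient samples. Over the colon-like arrays the difference of the leading probe set was 0.81 (limma adjusted p 0.350), and between the small intestine-like arrays it was 2.36. Car4 was thus higher in deficient tissue within both profiles, by a smaller amount among the colon-like arrays.

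The relative of Car4 that is best known as a hypoxia target, Car9, a transmembrane enzyme, was also higher on every deficient array. Car9 was the only 1 of 8 further family genes (Car5a, Car5b, Car6, Car7, Car9, Car10, Car11 and Car15) to pass the filter, while the leading probe sets of the other 7 lay between 2.25 and 4.85. It stood at 8.03, 7.46 and 8.18 in control and at 9.08, 9.17 and 8.39 in deficient samples, a log2 difference of 0.99 ± 0.30 (SE; limma adjusted p 0.659). The difference was 1.30 over the colon-like arrays and 0.36 between the small intestine-like ones. Among 12 genes of the hypoxia response, all measured, 8 were higher and 4 lower, with a median difference of 0.29, and 0 passed. Over all 10491 genes 5978 were higher and 9.36% were higher without overlap, beside 2 of these 12. Adm, the vasodilator peptide adrenomedullin, differed by 2.71, Hk2, a hexokinase, by 1.49, and Pgk1, a glycolytic kinase, by 0.60, with limma adjusted p from 0.659 to 0.679. Adm and Hk2 were those 2, and the groups overlapped for the 10 others, among them Vegfa at -0.01 and Ldha at 0.07.

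Promoter windows from RefSeq (build GRCm38.p6, 250 bases before to 50 after the annotated start) were at hand for Car4, Car12 and Car14 and for Car9. Those of Car4 (chr11:84957504-84957803, plus strand) and Car9 (chr4:43506776-43507075, plus strand) are shown because both genes were higher in every deficient sample. Capitals mark ACGTG, the core that hypoxia-inducible factors bind, which in both lies on the opposite strand and so reads reversed and complemented.
Car4: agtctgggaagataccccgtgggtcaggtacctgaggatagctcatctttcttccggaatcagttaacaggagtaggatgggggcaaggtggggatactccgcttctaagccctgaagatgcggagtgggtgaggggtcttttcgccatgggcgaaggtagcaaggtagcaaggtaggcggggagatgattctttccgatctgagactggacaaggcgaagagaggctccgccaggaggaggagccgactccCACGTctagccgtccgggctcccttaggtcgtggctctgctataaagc
Car9: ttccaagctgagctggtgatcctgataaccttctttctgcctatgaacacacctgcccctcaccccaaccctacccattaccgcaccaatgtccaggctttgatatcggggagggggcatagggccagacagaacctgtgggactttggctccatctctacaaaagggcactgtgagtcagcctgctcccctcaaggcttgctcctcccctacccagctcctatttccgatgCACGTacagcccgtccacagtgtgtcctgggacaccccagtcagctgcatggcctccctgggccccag
The match begins at base 253 of the Car4 window and base 233 of the Car9 window, counted from the 5′ end. Searched on both strands, ACGTG occurred in 19.6% of 32851 such windows, once in each of the Car4, Car9 and Car14 windows and not in that of Car12. AGGTCA, the half-site of nuclear receptors such as PPAR gamma, occurred in 16.3% of windows and in none of these 4. A match of letters is a description and shows no binding.

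Markers of myeloid cells and of dividing cells were also higher in the deficient samples. Of 9 measured macrophage and neutrophil markers (10 listed), all 9 were higher in deficient samples and 3 did not overlap: Msr1, a scavenger receptor, by 2.20, Fcgr1, an Fc receptor, by 2.18 and Itgam, an integrin of myeloid cells, by 1.76, with 0 passing limma's test. Their mean log2 level ran from 5.74 to 7.14 in control and from 7.06 to 9.53 in deficient samples, and Cxcr2, a neutrophil receptor, was near the floor at 2.26 to 2.32. All 7 measured proliferation markers (8 listed), among them Mki67 by 1.36, Top2a by 1.30 and Mcm2 by 0.89, were higher without overlap and with 0 passing, at a mean of 6.95 to 7.77 in control and 8.18 to 8.92 in deficient samples. Beside these 2 lists, 9.36% of all genes were higher without overlap. The macrophage list was highest on deficient replicate 2, while Car4 was highest on deficient replicate 3. The mean of 8 general epithelial markers was close in both groups, at 13.20 to 13.62 and 13.29 to 13.39. The part of these cells in the Car4 values was not tested.

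Car3, a cytosolic isozyme of low activity, was lower in the deficient samples on both of its bright probe sets. The leading one (1449434_at) stood at 13.10, 14.21 and 13.57 in control replicates 1 to 3 and at 12.23, 11.62 and 13.00 in deficient replicates 1 to 3. The groups were separated narrowly, by control replicate 1 and deficient replicate 3, the small intestine-like arrays. The means were 13.62 ± 0.56 and 12.28 ± 0.69 (SD, n = 3 each). The log2 difference was -1.34 ± 0.44 (SE), at limma's adjusted p of 0.659 (unadjusted p 0.0244). The second probe set (1460256_at) differed by -1.92, from 10.86 ± 1.04 to 8.94 ± 0.84, also without overlap. Over the colon-like arrays the leading probe set differed by -1.96 (limma adjusted p 0.263), and between the small intestine-like arrays by only -0.10. The 2 remaining Car3 probe sets did not pass the filter.

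Fat cell genes were lower in the same samples. Of 6 measured adipocyte markers (10 listed, 7 with a probe set) all 6 were lower in deficient samples, with a median of -1.35. Without overlap 4 of them were lower, beside 4.15% of all genes. The mean level of the 6 markers ran from 9.11 to 10.55 in control and from 7.58 to 8.55 in deficient samples. Adipoq, the adipocyte hormone adiponectin, stood at 10.15, 11.24 and 10.16 in control and 8.75, 8.16 and 9.43 in deficient samples. Like Car3 it was highest on control replicate 2 and lowest on deficient replicate 2, which not every marker shared. Fabp4, a fatty acid binding protein, differed by -0.97 and Cidec, a lipid droplet protein, by -2.26, both without overlap, while Lep, the leptin gene, was near the floor throughout at 2.25 to 2.36. Limma adjusted p was 0.659 for each of the 3. Fabp4 was lowest on deficient replicate 1, at 11.86. Over the colon-like arrays the 6 markers had a median difference of -1.72, beside -1.96 for Car3. Between the small intestine-like arrays their median was -0.63, whereas Car3 differed by only -0.10. Of 9 skeletal muscle markers, 7 did not pass the filter, with Myh4 and Tnnt3 at the floor and none of the 7 above 3.78, and the 2 measured, Acta1 and Ckm, differed by -0.16 and -0.82 with overlap. Control replicate 2 was also the only array with Xist, the RNA that silences an X chromosome in females, at 12.11 against 2.25. Without it the Car3 difference was -1.05. Leaving out an array cannot make separated groups overlap, so the separation that remained adds nothing. The part of fat content or of sex in the Car3 values was not tested.

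Car1 and Car2, the cytosolic enzymes of colonocytes, were separated by bowel profile more than by genotype. Car1 (1416193_at) stood at 2.83, 15.32 and 15.19 in control replicates 1 to 3 and at 14.38, 13.60 and 7.02 in deficient replicates 1 to 3. Both small intestine-like arrays lay far below the others, and the control one was near the floor. Over all arrays the log2 difference was 0.55 with a standard error of 3.94 (limma adjusted p 0.982). Among the colon-like arrays Car1 was lower in both deficient samples, by -1.26 with a standard error of 0.33 (limma adjusted p 0.305). Between the small intestine-like arrays it was higher in the deficient one, by 4.19. All 7 measured small intestine markers were lower in deficient replicate 3 than in control replicate 1, by a median of -0.83, from -0.11 for Enpep, a brush border peptidase, to -2.62 for Apoa4, an apolipoprotein. Goblet cell markers differed by a median of -0.24, with 5 of 8 lower, although Retnlb, a goblet cell peptide chosen after its values were seen, was at 2.32 and 11.64. How far a mixture of segments enters the Car1 values was not tested.

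Car2 (1448752_at), the high-activity isozyme, had the same shape in a narrower range. It stood at 5.58, 11.76 and 12.80 in control and at 11.94, 11.82 and 6.52 in deficient replicates 1 to 3. Its log2 difference was 0.05 with a standard error of 2.38 over all arrays (limma unadjusted p 0.985) and -0.40 with a standard error of 0.40 over the colon-like ones, where the genotypes overlapped. Red blood cells hold much Car1 and Car2 protein, and none of 5 erythroid markers with a probe set (9 listed) passed the filter. Their leading probe sets lay between 2.25 and 3.60, with Alas2, the heme enzyme of red cell precursors, at 2.25 on 5 arrays. Among all genes, 21.0% were lower and 13.9% higher on both small intestine-like arrays than on any other. Of the 7 members 2 were lower, Car1 and Car2, and 1 was higher, Car13. The 2 profiles were told apart by measured genes, so these counts are a description. The filter left out genes above log2 4 on only the 2 small intestine-like arrays. It kept those above log2 4 on only the 4 colon-like arrays, which favours the count of lower genes.

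Car13, a further cytosolic isozyme, ran against Car1 and Car2. Its leading probe set (1421307_at) stood at 7.98, 6.67 and 6.10 in control and at 6.87, 6.92 and 7.38 in deficient replicates 1 to 3. The small intestine-like array was the highest of each genotype, and the same held for both further Car13 probe sets. The log2 difference between genotypes was 0.14 with a standard error of 0.50 (limma adjusted p 0.961), with 0.50 over the colon-like arrays and -0.60 between the others. In the RefSeq gene table Car13, Car1, Car3 and Car2 follow each other in that order on chromosome 3, with 2 pseudogenes and 1 long noncoding RNA gene as the only entries between them. These 4 neighbours had 3 different shapes across the arrays, with Car1 and Car2 low on the small intestine-like arrays, Car13 high on them and Car3 overlapping between the profiles. The root mean square difference of their centred log2 profiles was 2.04 between Car1 and Car2 and 5.30 between Car1 and Car13. It is not scaled, so the wide range of Car1 enters it. Car1 was also 4.81 from Car3 and 4.52 from Car12.

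**Figure D2:**
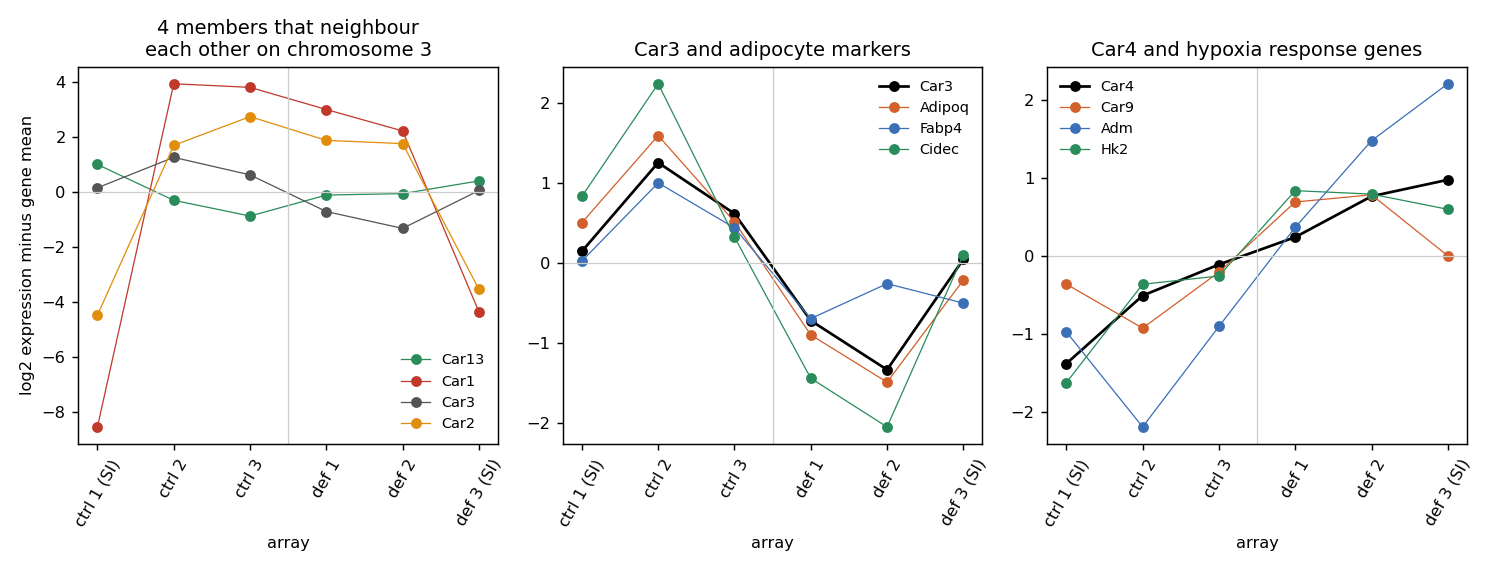
Log2 expression minus each gene's mean on each array (ctrl, control; def, deficient; SI, small intestine-like), for the 4 members that neighbour each other on chromosome 3, for Car3 with 3 adipocyte markers, and for Car4 with Car9, Adm and Hk2; lines join the points of a gene and stand for no order of samples, and the vertical scale differs between panels. Car1 and Car2 fall away on both SI arrays. Car3 and Adipoq share their highest and lowest array, whereas Fabp4 has another lowest array. Car4, Car9, Adm and Hk2 are higher in all deficient samples. Adm and Hk2 are the only 2 of 12 listed hypoxia response genes without overlap. The others are not drawn, and 4 of the 12 were lower in deficient samples.

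Car8, a family protein without enzyme activity that binds the receptor for inositol trisphosphate, was lower in deficient samples among the colon-like arrays and not between the other 2. Its leading probe set (1427482_a_at) stood at 8.78, 11.47 and 11.69 in control and at 10.66, 8.65 and 9.52 in deficient replicates 1 to 3. The small intestine-like control array lay within the deficient range, so the groups overlapped. The log2 difference was -1.04 with a standard error of 0.92 (limma adjusted p 0.802), against -1.93 over the colon-like arrays (limma adjusted p 0.363) and 0.74 between the other 2. The 2 weaker Car8 probe sets lay between 2.68 and 4.87 and differed by -0.30 and -0.24.

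Car12, a transmembrane enzyme facing outward, varied least of the measured members. Its leading probe set (1428485_at) stood at 6.94, 7.46 and 7.89 in control and at 7.66, 6.82 and 7.02 in deficient replicates 1 to 3. The groups overlapped, with a log2 difference of -0.26 and a standard error of 0.34 (limma adjusted p 0.873). Car14, a related transmembrane enzyme, was at 3.15 in control replicate 1 and at 2.57 on each other array, so every value lay under the filter at log2 4 and no comparison was made.

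**Figure D3:**
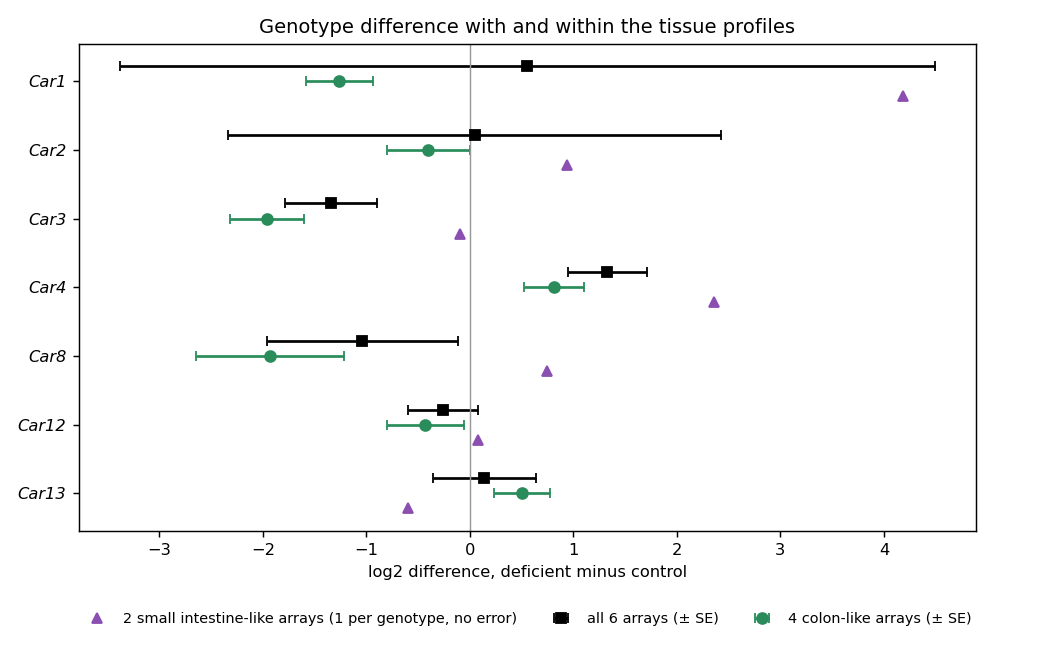
Log2 difference, deficient minus control, of the leading probe set of the 7 genes past the filter, over all 6 arrays and over the 4 colon-like arrays (each ± SE of the limma fit) and between the 2 small intestine-like arrays (1 per genotype, no error). Car4 is above 0 and Car3 below 0 in all 3, as must hold for genes without overlap over the 6 arrays. The 5 others lie on opposite sides of 0 in the colon-like and small intestine-like arrays.

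Among the colon-like arrays taken alone, where 2 samples stood against 2, both deficient samples were above both controls for Car4 and Car13, or 2 of 7 members and 30.5% of all genes. Both were below for Car1, Car3 and Car8, or 3 of 7 members and 18.4% of all genes. With limma over these 4 arrays, 0 of 7 members and 0% of all genes passed, and 1461 genes had an unadjusted p under 0.05. Car2 and Car12 overlapped between the genotypes. Genes that mark position along the bowel differed too. Hoxd10 was at 6.59 and 6.51 in control and 3.91 and 2.29 in deficient samples. Hoxb13 was at 2.26 and 2.25 against 3.76 and 7.30. Aqp8, a surface colonocyte marker, was at 7.03 and 7.62 against 9.26 and 10.55. The 4 measured posterior Hox genes had a median difference of -0.29 here, with Hoxa10 at 1.75 and Hoxb9 at -1.71. Position within the colon and genotype cannot be told apart on these arrays.

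The transporters that use the products of carbonic anhydrases did not follow 1 direction. Of 19 exchangers, channels and accessory proteins listed, 17 had a probe set and 11 passed the filter. Of these, 4 were higher and 7 lower in deficient samples, with a median of -0.34, 0 passed, and the groups overlapped for all 11. The smallest unadjusted p were those of Slc9a2, a sodium/proton exchanger, at -0.87, Slc26a2, a sulfate transporter, at -0.43, and Bsg, the partner protein of monocarboxylate transporters, at -0.34 (limma adjusted p 0.686 to 0.731). Slc26a3, the chloride/bicarbonate exchanger of colonocytes, differed by 0.43. It was at 10.78 and 10.34 in the colon-like control and 11.58 and 11.54 in the colon-like deficient samples, and lower in the deficient one of the other 2, by -0.73. Slc26a6, an anion exchanger named here after its values were seen, mirrored Car1. It was at 10.62 and 10.66 on the small intestine-like arrays and at 2.25 to 2.54 on the other 4, and was left out by the filter.

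The genes whose profile over the 6 arrays came closest to a member's were found from the root mean square difference of mean-centred log2 values. For Car4 they were Lgmn, a lysosomal protease (0.16), Trp53i11 (0.21) and Rgs4 (0.27), each lowest on control replicate 1. For Car3 they were Phgr1 (0.17), Unc5b (0.21) and Osr1 (0.22). Car2 had Ccn3 (0.27), Hao2 (0.41) and Cyp2d34 (0.46) as nearest, and Car1, whose range was widest, had Sptssb (1.54), Hao2 (1.75) and Ccn3 (1.87). For Car8 they were Aspg (0.21), Creb3l4 (0.22) and Hoxb5 (0.35), for Car12 Fut4 (0.07), Wdr6 (0.08) and Surf1 (0.09), and for Car13 Nqo2 (0.08), Rfng (0.13) and Trp53i13 (0.15). Car1 and Car2 had 2 of 3 nearest genes in common, and no member was among the 3 nearest of another. With 6 arrays and 2 bowel profiles this likeness is a description of these samples.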

How the data were processed

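Total RNA of 6 colon samples was hybridised to Affymetrix mouse arrays. The authors deposited log2 expression summaries per probe set, made with GCRMA per the submitters' processing notes; its version and settings are, in the sources used here, not given, and the log2 scale was read from the values. GCRMA subtracts background modelled on probe sequence, so differences near the floor of 2.25 are compressed. Of 45101 probe sets, 34958 named 1 gene, 932 several and 9211 none, by the platform annotation. With 3 arrays a group, precision is limited by their number. Labels call the replicates biological.

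Probe sets naming 1 gene and above log2 4 on at least 3 arrays were kept, and the brightest kept one stood for its gene (10491 genes). Deficient was compared with control by limma 3.58.1 in R 4.3.3 (lmFit, eBayes, two-sided, no covariate), with Benjamini-Hochberg adjustment over all genes and a threshold of 0.05. Arrays were called small intestine-like when Fabp6 and Apoa1 were above log2 10. Members and lists were chosen with earlier results of these data known. Named genes were the members, the 3 nearest profiles of each, in lists described gene by gene the 3 with the smallest p, and Fabp6, Apoa1, Hoxa10 and Pparg. Vegfa, Ldha, Slc26a3, Slc26a6, Retnlb, Apoa4, Enpep, Xist, Aqp8, Hoxb9, Hoxb13, Hoxd10 and the markers near the floor were named after their values were seen. The procedure was tested on simulated data. Alternatives covered filters, scaling, probe set choice, a floor, variance models, blocks and leaving out arrays. Lists for 5 other gene groups are given mainly in the closing section.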

Additional observations from a re-analysis of the deposited data

Results flagged for a closer look

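The genotype difference of 3 members pointed in opposite directions in the 2 bowel profiles, without overlap between genotypes among the colon-like arrays. Between the small intestine-like arrays, 1 per genotype, overlap was not possible. Car2 and Car12 also changed direction, but overlapped among the colon-like arrays. How many of all genes changed direction was not counted. For Car1 the difference was -1.26 over the colon-like arrays and 4.19 between the small intestine-like ones, 5.45 apart. For Car8 it was -1.93 and 0.74, 2.67 apart. For Car13 it was 0.50 and -0.60, so that the second minus the first was -1.10. An interaction term of genotype with profile, added after the data were seen, gave limma adjusted p of 0.641 for Car1 and 0.936 for Car8 and Car13, and 0 of 10491 genes passed (541 at an unadjusted p under 0.05). It rests on 1 array per genotype in the small intestine-like profile and on 2 residual degrees of freedom.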

How the results depend on the processing

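Members were called in none of the 20 alternative settings. Over all genes the count of 0 held in 18 of 20; with array weights it was 2 and with every probe set tested on its own 1. In fits without 1 array it was 0 throughout, with 431 to 1191 genes at an unadjusted p under 0.05. Car3, Car4, Car8 and Car12 kept their direction in all 18 settings that gave a value: Car3 from -1.96 to -1.01, Car4 from 0.66 (with array weights) to 1.60, Car8 from -1.97 to -0.52 and Car12 from -0.51 to -0.03. The other filters, the floor and the blocks left these differences unchanged, so a kept direction there adds nothing. For Car3 and Car4, whose groups did not overlap, no fit on fewer arrays could turn the sign. Limma adjusted p ran from 0.0944 to 0.985 for Car3 and from 0.246 to 0.985 for Car4. Signs turned for Car1, Car2 and Car13. Leaving out both small intestine-like arrays gave -1.26 for Car1 and -0.40 for Car2, and array weights gave -0.11 for Car2. In fits without 1 array Car1 ran from -3.59 to 2.88, with negative values without control replicate 1 (-3.59), deficient replicate 1 (-0.80) or deficient replicate 2 (-0.41). Car2 ran from -2.19 to 1.83, and was negative without control replicate 1 (-2.19), deficient replicate 1 (-0.88) or deficient replicate 2 (-0.82). Car13 ran from -0.27 to 0.67, and was negative without control replicate 3 (-0.27) or deficient replicate 3 (-0.03). The segment balance of the groups differs between these fits. The members' median of 0.05 turned sign with array weights (-0.11), without both small intestine-like arrays (-0.43) and in 5 of the 6 fits without 1 array, which ran from -1.60 to 0.015. Medians of the transport partners (-0.59 to -0.21) and the hypoxia genes (0.17 to 0.35) kept their sign in all 18 settings. The other filters, the floor and the blocks left these medians unchanged too.

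The replicate block left 0 genes called (437 at an unadjusted p under 0.05) and gave the same differences. The numbers did not pair the samples: deviations of same-numbered arrays correlated at -0.543, 0.363 and -0.606 over genes. The other marker lists had medians of 0.15 (surface colonocytes, 6 of 10 measured), 0.06 (goblet cells, 8 of 8), -0.01 (smooth muscle, 7 of 7), -0.63 (small intestine enterocytes, 7 of 12) and 0.05 (posterior Hox genes, 4 of 12), each with 0 genes called.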
